A study of Mus musculus with 8 samples.

Results

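The genes described here are Trp53, which encodes the mouse tumour suppressor p53, and 33 genes around it: its inhibitors Mdm2 and Mdm4, its cofactor Pml and a set of genes described as p53 targets. The 34 members were picked by gene name from the 55359 genes of the deposited table, and each name matched 1 row. The 8 RNA-seq libraries came from untreated peritoneal mast cells (PMCs), mast cells washed from the mouse peritoneum and expanded in culture. All cells are labelled wild-type and are of the mixed C57BL/6x129/Sv background. Primary PMCs from female mice (n = 3) and male mice (n = 3) were compared with PMC-303 (n = 1) and PMC-306 (n = 1), lines that arose spontaneously in ageing, neglected PMC cultures. The age of the mice is not given in the sources used here. The lines were kept with less serum and less stem cell factor than the primary cells, so that medium and transformation cannot be told apart in these libraries. Both lines also carry chromosome changes. PMC-306, which has a male karyotype, carries a heterozygous deletion in chromosome 4 that takes in Cdkn2a in all analyzed cells. A translocation between the Y and another chromosome was seen in a minority of its karyotypes. Most PMC-303 cells have an extra chromosome 8. The ends of the deletion in bases are not given in the sources used here.

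p53 is a transcription factor that is held at a low level by MDM2, a ubiquitin ligase, and by the related protein MDM4. After DNA damage, oncogene activity or other stress, p53 escapes this control and switches on genes that stop the cell cycle, repair DNA, change metabolism or start cell death. Mdm2 is itself a p53 target, which closes a negative feedback loop, and ARF, a product of the Cdkn2a locus, blocks MDM2. The level of Trp53 mRNA says little about p53 activity, which is largely set at the protein level, and no protein was measured in these libraries.

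p53 binds a pair of 10-base consensus sequences, called p53 decamers below. RefSeq promoter windows on build GRCm38.p6, which run from 250 bases before to 50 bases after a transcript start, were available for 27 of the 34 members. A p53 decamer (both strands, as the consensus reads alike on either) lay in the windows of 10 of these 27 members, or 37.0%, and in those of 9.55% of all 27025 genes in the table. The share was 38.5% (5 of 13) among members that fell in the lines and 35.7% (5 of 14) among the other members. No member window held a pair of decamers with a spacer of up to 13 bases, an arrangement found in 24 of all 32851 windows. Only decamers that match the consensus at every base were counted, so that a site with a mismatch is missed. A match describes the letters of the window and is not evidence of binding. The p53 sites of Mdm2 known from other work lie in an intron, outside its window. Of the 7 members that were called different and had a decamer, the 5 with the largest differences are shown to place the decamer in its context, with the decamer in capitals and the strand of the gene read 5′ to 3′. For Gtse1, whose decamer lies just after the transcript start, 30 bases are given. For the others the 250 bases before the start are given.
Gtse1, chr15:85859945-85859974, plus strand: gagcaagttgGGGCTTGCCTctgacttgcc
Ccng1, chr11:40755287-40755536, minus strand: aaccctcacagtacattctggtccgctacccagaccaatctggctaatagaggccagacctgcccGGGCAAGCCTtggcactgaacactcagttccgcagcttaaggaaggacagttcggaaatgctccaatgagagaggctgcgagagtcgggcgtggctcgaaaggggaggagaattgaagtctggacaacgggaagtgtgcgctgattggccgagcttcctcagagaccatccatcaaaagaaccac
Aen, chr7:78895808-78896057, plus strand: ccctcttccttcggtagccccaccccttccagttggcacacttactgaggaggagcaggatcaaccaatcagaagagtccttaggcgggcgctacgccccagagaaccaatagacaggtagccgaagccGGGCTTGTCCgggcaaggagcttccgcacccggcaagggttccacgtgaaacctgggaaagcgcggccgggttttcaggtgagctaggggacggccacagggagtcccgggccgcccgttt
Polk, chr13:96519188-96519437, minus strand: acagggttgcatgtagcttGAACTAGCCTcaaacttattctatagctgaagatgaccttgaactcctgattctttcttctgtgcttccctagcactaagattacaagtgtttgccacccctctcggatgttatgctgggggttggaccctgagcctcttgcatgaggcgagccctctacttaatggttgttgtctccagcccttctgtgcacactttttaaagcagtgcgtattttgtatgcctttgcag
Mdm2, chr10:117710759-117711008, minus strand: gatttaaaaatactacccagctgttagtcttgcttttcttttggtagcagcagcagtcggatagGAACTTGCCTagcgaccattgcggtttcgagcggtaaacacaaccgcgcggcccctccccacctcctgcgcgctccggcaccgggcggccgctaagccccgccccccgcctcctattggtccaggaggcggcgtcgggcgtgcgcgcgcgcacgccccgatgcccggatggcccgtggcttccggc

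The decamer of Ccng1 begins 185 bases before the transcript start, that of Mdm2 186, that of Aen 121 and that of Polk 231. In these windows the decamers of Ccng1 and Mdm2 lie at almost the same distance from the start, and both genes fell in the lines, as did Aen and Polk. Gtse1, whose decamer begins at base 10 of the transcript, rose. Only 5 of the 7 called members with a decamer are shown, picked by the size of their differences. Gtse1 alone of these has its decamer after the start. A link between the place of a decamer and the direction of change was not tested.

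The libraries held between 15918758 and 24180226 estimated counts. A count of 0 therefore allows a level of up to 0.123 to 0.187 CPM (library-size-scaled counts, computed with TMM library sizes, which assume that most genes do not change), taking 3 counts as the limit and covering counting error only. Of the 7 mast cell markers, Kit and Fcer1a reached at least 1323 CPM in every library and were lower in both lines than in any primary culture. Cpa3 was within the primary range in both lines, Ms4a2 and Cma1 were within it in PMC-303 and below it in PMC-306, Gata2 was within it in PMC-303 and above it in PMC-306 (662 CPM), and Hdc was above it in PMC-303 (42.4 CPM) and within it in PMC-306. The 7 macrophage markers summed to 7.22 to 68.7 CPM in the primary cultures, to 7.16 CPM in PMC-303 and to 441 CPM in PMC-306. In PMC-306, 426 CPM of this sum were Adgre1, 13.9 CPM Cd68 and 1.13 CPM Lyz2. In the primary cultures Adgre1 ranged from 3.37 to 46.4 CPM, Cd68 from 1.48 to 17.8 CPM and Lyz2 from 1.18 to 18.0 CPM. Adgre1 and Lyz2 were both highest in female culture 2. The markers C1qa, C1qb, Csf1r and Cd14 were at or below 0.230 CPM in all libraries. B cell and fibroblast or mesothelial markers were all under 1 CPM. Of the T cell markers only Cd4 exceeded 1 CPM, in male culture 1 (3.22 CPM). The PMC-303 library, which contained Xist (900 CPM), also held 1.44 CPM of the Y-linked gene Ddx3y, against 99.97 CPM on average in the male cultures and at most 0.0439 CPM in the female cultures. The part of any of these in the results was not tested.

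The first question was which members differ between the lines and the primary PMCs. The 2 line libraries were compared with the 6 primary libraries by limma on log2(CPM + 0.1), with p-values adjusted over all 14529 genes tested, and a gene was called at an adjusted p under 0.05. Perp, a desmosomal and cell death gene, had at most 1 count in any library and was not tested. Of the 33 members tested, 18 fell and 3 rose in the lines, and 12 were not called. Of all genes tested, 15.5% fell and 18.3% rose. The share of members that fell was therefore 54.5% and the share that rose 9.09%. The median log2 difference, lines minus primary, was −0.76 over the 33 members tested and −0.01 over all genes. Both lines lay below all 6 primary cultures for 18 members, against 20.1% of all genes, and above all 6 for 4 members, against 23.0% of all genes. The lines are different lines and not replicates of each other, so that the spread within them includes any difference between the lines. With the female primary cultures alone 9 members fell and 1 rose, and the calls of Mdm2, Pml, Ccng1, Tnfrsf10b, Eda2r, Apaf1, Ei24, Sesn2, Tigar, Ak1 and Rrm2b ended. With the male primary cultures alone 15 members fell and 2 rose, the calls of Gtse1, Eda2r, Ei24, Sesn2 and Dcxr ended and Mdm4 was called. When a line was left out, the remaining line library was assumed to vary like the primary cultures.

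**Figure D1:**
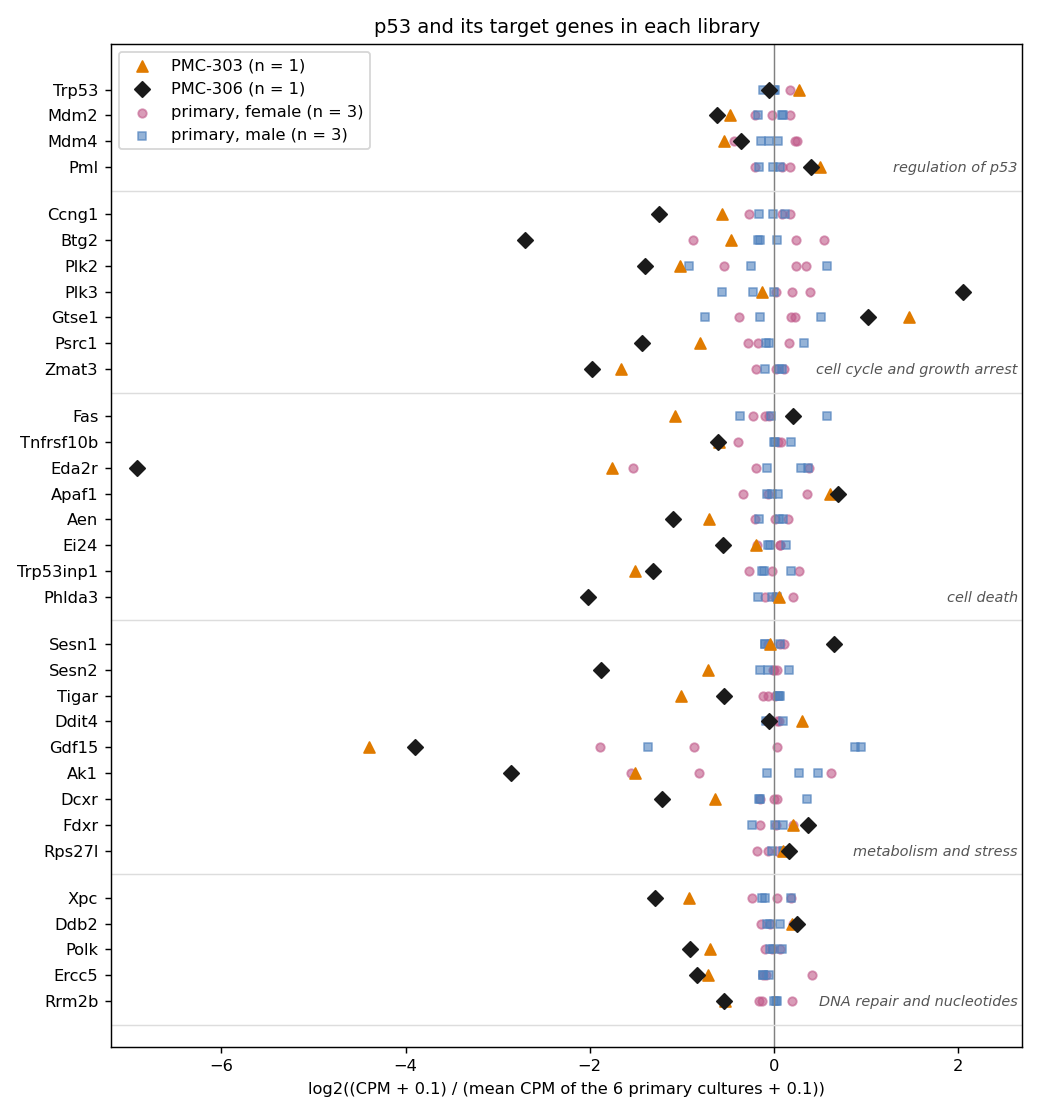
Each of the 33 members tested is plotted by library as the log2 ratio of its CPM + 0.1 to the primary mean + 0.1 (x axis), grouped by role (y axis). Circles and squares are the 3 female and 3 male primary cultures, the triangle is PMC-303 and the diamond PMC-306. For 18 members both lines lie to the left of every primary culture, and Eda2r, with 0 counts in PMC-306, lies farthest to the left.

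Trp53 itself (chr11:69469669-69482701 on GRCm39, plus strand, as all gene positions from here on come from GENCODE M39) was not called. Its level was 49.7 and 39.5 CPM in PMC-303 and PMC-306, and in the primary cultures it ranged from 38.0 to 46.4 CPM with a median of 40.6 CPM. PMC-303 was above every primary culture and PMC-306 within their range. The limma fit gave a log2 difference of 0.11 ± 0.11 (SE; limma, adjusted p = 0.459), and it stayed uncalled under all 17 alternative settings.

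Mdm2 (chr10:117524780-117546730, minus strand), the ubiquitin ligase that marks p53 for degradation, fell. It reached 96.8 and 87.8 CPM in PMC-303 and PMC-306, against 117 to 152 CPM in the primary cultures (median 138 CPM). Neither line overlapped the primary cultures. This was a log2 difference of −0.54 ± 0.11 (limma, adjusted p = 0.00723). Without PMC-306 it was −0.47 and the adjusted p 0.0539.

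Mdm4 (chr1:132887222-132958299, minus strand), the MDM2 relative that inhibits p53 without a ligase activity of its own, was 141 and 160 CPM in PMC-303 and PMC-306. The primary cultures ranged from 151 to 243 CPM with a median of 204 CPM, so that PMC-306 lay within their range and PMC-303 below it. The log2 difference of −0.43 ± 0.17 was not called (limma, adjusted p = 0.0854). It was called without female culture 2, the primary culture with the least Mdm4 (−0.51, adjusted p = 0.0175), and with the male primary cultures alone (−0.40, adjusted p = 0.0461).

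Pml, which encodes the scaffold of the nuclear bodies in which p53 is modified, rose. It was 30.7 and 28.6 CPM in PMC-303 and PMC-306, above the 18.8 to 24.6 CPM of the primary cultures (median 22.2 CPM). The log2 difference of 0.46 ± 0.12 (limma, adjusted p = 0.0174) was no longer called without PMC-303 (adjusted p = 0.0960). Per length, in TPM (transcript abundance corrected for length and depth), the primary cultures held 66.3 ± 10.3 TPM of Mdm2 (mean ± SD, n = 6), 65.2 ± 14.5 TPM of Mdm4, 23.8 ± 2.39 TPM of Trp53 and 6.67 ± 1.28 TPM of Pml. Mdm2 and Mdm4 did not differ beyond their spread, and both lay above Trp53.

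Among the 7 members with roles in the cell cycle and growth arrest, Zmat3, Psrc1 and Ccng1 fell, Gtse1 rose and Btg2, Plk2 and Plk3 were not called. That is 42.9% lower and 14.3% higher, beside 15.5% and 18.3% of all genes. Zmat3 (chr3:32388941-32420163, minus strand), an RNA-binding zinc finger protein that acts in p53-dependent growth suppression, had the smallest adjusted p of all members. It was 24.5 and 19.7 CPM in PMC-303 and PMC-306. The primary cultures held 68.2 to 84.1 CPM with a median of 80.0 CPM, more than 2-fold above either line. On the log2 scale the difference was −1.82 ± 0.11 (limma, adjusted p = 5.41e-05), and the call held under all 17 alternatives.

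Ccng1 (chr11:40639377-40646148, minus strand), which encodes cyclin G1, a partner of the phosphatase PP2A in the control of MDM2, was the most abundant member in CPM. It was 449 and 278 CPM in PMC-303 and PMC-306, below the 551 to 747 CPM of the primary cultures (median 683 CPM). The log2 difference was −0.90 ± 0.18 (limma, adjusted p = 0.00661). Psrc1, a spindle protein, was 18.0 and 11.6 CPM in PMC-303 and PMC-306, against 26.0 to 39.7 CPM in the primary cultures (median 30.0 CPM). Its log2 difference was −1.11 ± 0.20 (limma, adjusted p = 0.00362), a call that held under all 17 alternatives. For both genes PMC-306 was the lower of the lines.

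Gtse1, a microtubule-associated protein of G2 and S phase that draws p53 out of the nucleus, rose. It was 38.9 and 28.5 CPM in PMC-303 and PMC-306, and the primary cultures held 8.29 to 19.9 CPM (median 14.3 CPM). The limma fit gave a log2 difference of 1.30 ± 0.31 (adjusted p = 0.0125), and without PMC-303 the adjusted p was 0.0905. The proliferation gene Mki67, the Ki-67 antigen, was 28.6 to 106 CPM in the primary cultures and 1015 and 835 CPM in PMC-303 and PMC-306. The lowest primary values of Mki67 and of Gtse1 were both those of male culture 3, followed by female culture 2. The highest primary values were in different cultures, female culture 3 for Mki67 and male culture 1 for Gtse1. The part of proliferation in the level of Gtse1 was not tested.

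Plk3, a kinase that phosphorylates p53 under stress, was 6.87 CPM in PMC-303, within the primary range of 5.06 to 9.88 CPM, and 31.6 CPM in PMC-306. The antiproliferative gene Btg2 was 2.22 CPM in PMC-303, again within the primary range of 1.65 to 4.57 CPM, and 0.393 CPM in PMC-306. Neither was called (limma, adjusted p = 0.152 and 0.0665), and each was called once PMC-303 was left out (log2 differences of 2.09 and −2.64). Plk2, a stress-induced kinase, stayed between 0.196 and 1.07 CPM in all libraries. It was not called (limma, adjusted p = 0.0891), except without male culture 3 (adjusted p = 0.0469).

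Of the 8 members tested with roles in cell death, 5 fell (Trp53inp1, Aen, Eda2r, Tnfrsf10b and Ei24), Apaf1 rose, and Fas and Phlda3 were not called. That is 62.5% lower and 12.5% higher, beside the same 15.5% and 18.3% of all genes. Trp53inp1 (chr4:11156412-11175230, plus strand), which promotes the phosphorylation of p53 and takes part in autophagy, was 116 and 133 CPM in PMC-303 and PMC-306. In the primary cultures it ranged from 272 to 397 CPM with a median of 315 CPM. This was a log2 difference of −1.39 ± 0.14 (limma, adjusted p = 2.56e-04). Aen (chr7:78545602-78560957, plus strand), an apoptosis-enhancing nuclease, was 41.3 and 31.3 CPM in PMC-303 and PMC-306, against 58.3 to 75.02 CPM in the primary cultures (median 69.1 CPM). On the log2 scale the difference was −0.90 ± 0.13 (limma, adjusted p = 0.00135). Both genes stood clear of the primary range in both lines and kept their calls under all 17 alternatives.

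The receptor genes in this role group differed among themselves. Eda2r (chrX:96320270-96420847, minus strand), the receptor of the A2 form of ectodysplasin, had 3.46 CPM in PMC-303 and 0 counts in PMC-306. The primary cultures held 4.09 to 15.7 CPM with a median of 13.05 CPM, and female culture 1 was the lowest of them. Against the limit of 3 counts Eda2r was at least 81.3-fold lower in PMC-306 than the primary mean. The fitted log2 difference of −4.22 ± 1.12 depends on the offset of 0.1 CPM (limma, adjusted p = 0.0204). It was not called by voom (adjusted p = 0.0976) or without PMC-306 (−1.64, adjusted p = 0.102). Tnfrsf10b, the receptor of TRAIL, was 5.81 and 5.79 CPM in PMC-303 and PMC-306, just below the primary range of 6.72 to 10.1 CPM (median 9.03 CPM). Its log2 difference of −0.59 ± 0.16 (limma, adjusted p = 0.0226) was not called without PMC-303 (adjusted p = 0.0823), without PMC-306 (adjusted p = 0.0861) or with total-count scaling (adjusted p = 0.0635). Fas, the receptor of Fas ligand, was 1.15 and 2.95 CPM in PMC-303 and PMC-306, on either side of a primary median of 2.40 CPM, and was not called (limma, adjusted p = 0.432).

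Apaf1 (chr10:90825173-90918686, minus strand), the core of the apoptosome that activates caspase-9, rose. It was 74.1 and 78.8 CPM in PMC-303 and PMC-306, above the 38.6 to 62.5 CPM of the primary cultures (median 47.1 CPM). The log2 difference was 0.67 ± 0.15 (limma, adjusted p = 0.0104), and without PMC-306 the adjusted p was 0.0628. Ei24, an autophagy-linked membrane protein, was 71.7 and 55.8 CPM in PMC-303 and PMC-306, and the lowest primary culture held 72.3 CPM, the median 82.8 CPM and the highest 90.1 CPM. PMC-303 thus nearly touched the primary range. The log2 difference of −0.37 ± 0.11 (limma, adjusted p = 0.0351) was the smallest of those called, and 11 of 17 alternatives ended the call. It was lost without PMC-306 (−0.19, adjusted p = 0.284) and without each primary culture but female culture 2 (adjusted p of 0.0505 to 0.0636). Phlda3, a repressor of AKT, was 37.2 CPM in PMC-303, within the primary range of 31.9 to 41.3 CPM, and 8.74 CPM in PMC-306. It was not called over both lines (limma, adjusted p = 0.109) and was called once PMC-303 was left out (log2 difference −2.02, adjusted p = 1.66e-04).

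**Figure D2:**
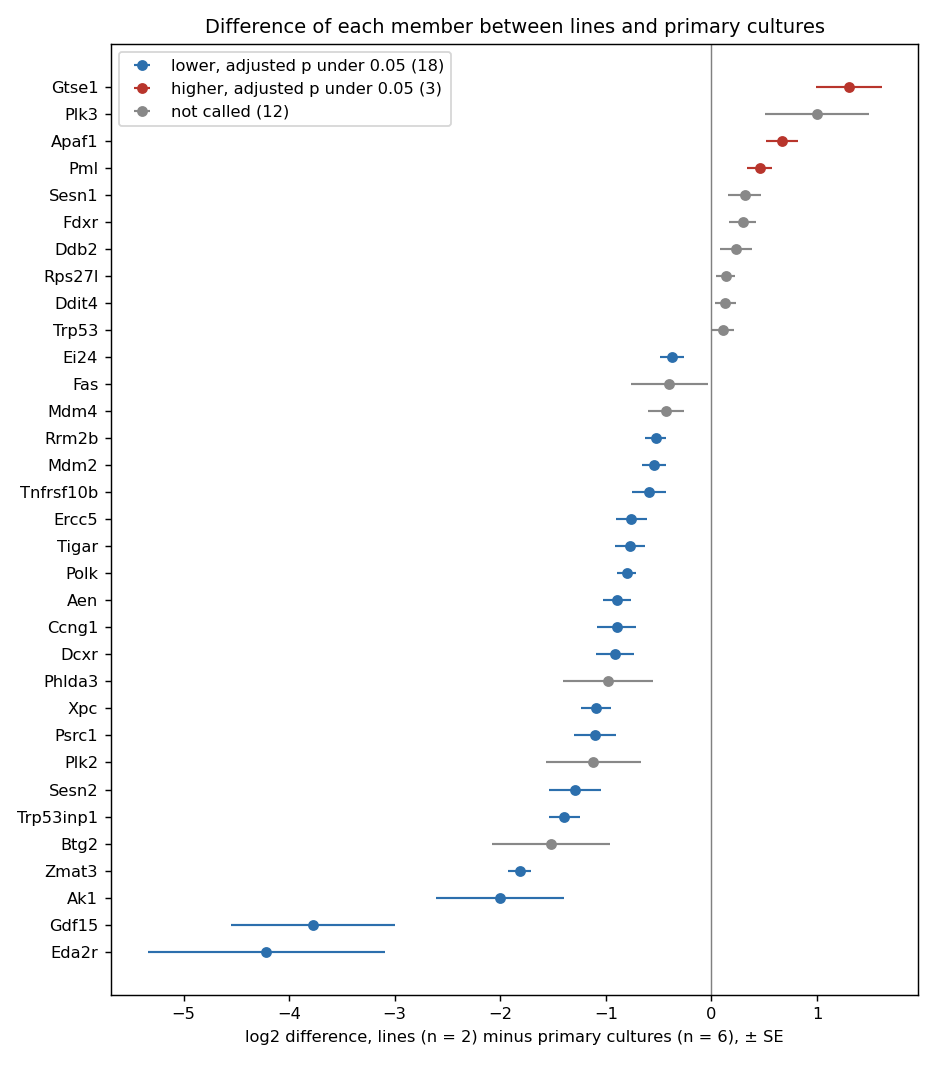
The log2 difference of each of the 33 members tested, lines (n = 2) minus primary cultures (n = 6), is plotted with its SE (x axis) and the members are ordered by size (y axis). Blue points fell (18), red points rose (3) and grey points were not called (12). Zmat3 combines a large difference (−1.82) with a small SE (0.11), whereas Eda2r has the largest difference and the largest SE (1.12).

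Of the 9 members with roles in metabolism and stress, Sesn2, Tigar, Dcxr, Gdf15 and Ak1 fell (55.6%, beside 15.5% of all genes) and none rose. Sesn2 (chr4:132219335-132237815, minus strand), a stress sensor that restrains mTORC1, was 64.7 and 28.9 CPM in PMC-303 and PMC-306, against 95.9 to 119 CPM in the primary cultures (median 106 CPM). The limma fit gave a log2 difference of −1.29 ± 0.24 (adjusted p = 0.00453). Its relative Sesn1 was not called (log2 difference 0.31 ± 0.16, limma, adjusted p = 0.166). Sesn1 was 45.5 CPM in PMC-303, within the primary range of 43.6 to 50.4 CPM, and 73.8 CPM in PMC-306, above it. Without PMC-303 it was called (0.66, adjusted p = 0.00396). In PMC-306, therefore, Sesn2 lay below and Sesn1 above every primary culture.

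Tigar, a phosphatase that slows glycolysis, was 5.19 and 7.17 CPM in PMC-303 and PMC-306, below a narrow primary range of 9.69 to 11.0 CPM (median 10.7 CPM). This was a log2 difference of −0.77 ± 0.14 (limma, adjusted p = 0.00379). Dcxr, an L-xylulose reductase, was 19.6 and 13.2 CPM in PMC-303 and PMC-306, against 27.4 to 39.2 CPM in the primary cultures (median 29.1 CPM). Its log2 difference was −0.91 ± 0.18 (limma, adjusted p = 0.00551). PMC-303 held less Tigar and PMC-306 less Dcxr than the other line.

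Gdf15, a secreted stress cytokine, had 1 count in PMC-303 and 2 counts in PMC-306. The primary cultures held 0.703 to 5.62 CPM with a median of 2.23 CPM. The primary mean was 69.6 times the PMC-303 level (95% counting interval 12.5 to 2749) and 29.2 times the PMC-306 level (8.08 to 241). The fitted log2 difference of −3.77 ± 0.78 (limma, adjusted p = 0.00665) rests on these few counts, and voom, which weights low counts down, gave an adjusted p of 0.134. Ak1, an adenylate kinase, was 2.26 and 0.835 CPM in PMC-303 and PMC-306. It varied widely among the primary cultures, from 2.196 to 10.3 CPM with a median of 7.16 CPM, and PMC-303 overlapped them. Its log2 difference was −2.003 ± 0.61 (limma, adjusted p = 0.0337), and it was not called without PMC-306 (−1.33, adjusted p = 0.233) or without female culture 1 or any of the male cultures (adjusted p of 0.0560 to 0.0621), nor by voom (adjusted p = 0.122).

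Ddit4, an mTORC1 inhibitor, Fdxr, a mitochondrial ferredoxin reductase, and Rps27l, a relative of a ribosomal protein, differed by 0.13, 0.29 and 0.14 on the log2 scale and were not called (limma, adjusted p of 0.347, 0.102 and 0.274). Ddit4 was called without PMC-306 (0.31, adjusted p = 0.0494), and Fdxr with total-count scaling (0.40, adjusted p = 0.0202). For Fdxr both lines, at 28.77 and 32.2 CPM, lay above the highest primary culture (28.77 CPM), PMC-303 by less than 0.01 CPM. Rps27l shares much of its sequence with Rps27, so that its counts may depend on how reads were divided. Per length, Rps27l (210 ± 20.7 TPM) and Ccng1 (199 ± 33.1 TPM) stood highest among the members in the primary cultures and did not differ beyond their spread.

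Of the 5 members that act in DNA repair and nucleotide supply, 4 fell (80%, beside 15.5% of all genes) and none rose. Xpc (chr6:91466287-91492898, minus strand), the damage sensor of nucleotide excision repair, was 25.8 and 19.99 CPM in PMC-303 and PMC-306, against 41.5 to 55.8 CPM in the primary cultures (median 48.0 CPM). On the log2 scale the difference was −1.09 ± 0.14 (limma, adjusted p = 7.64e-04). Polk (chr13:96617196-96679087, minus strand), a DNA polymerase that copies past lesions, was 19.1 and 16.3 CPM in PMC-303 and PMC-306, against 28.9 to 32.9 CPM in the primary cultures (median 30.6 CPM). The log2 difference was −0.80 ± 0.09 (limma, adjusted p = 3.57e-04). Ercc5, an endonuclease of the same repair pathway as Xpc, was 24.4 and 22.3 CPM in PMC-303 and PMC-306, and 36.7 to 53.2 CPM in the primary cultures (median 37.3 CPM). Its log2 difference was −0.76 ± 0.15 (limma, adjusted p = 0.00496). The calls of these 3 genes held under all 17 alternatives.

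Rrm2b, a subunit of ribonucleotide reductase that supplies nucleotides outside S phase, was 29.0 and 28.8 CPM in PMC-303 and PMC-306. The primary cultures held 37.5 to 48.1 CPM with a median of 42.3 CPM, so that the groups did not overlap. The limma fit gave a log2 difference of −0.53 ± 0.10 (adjusted p = 0.00457). Ddb2, the other damage sensor of nucleotide excision repair in the set, was 4.94 and 5.16 CPM in PMC-303 and PMC-306. The primary range was 3.91 to 5.01 CPM, and Ddb2 was not called (log2 difference 0.23 ± 0.15, limma, adjusted p = 0.282).

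The second question was whether the members moved alike in both lines. As each line has 1 library, folds against the primary mean are given without a test, where the line or the primary mean reached 1 CPM (32 members). In PMC-306, 13 members were at least 2-fold lower (10.3% of all 13064 genes), and Plk3 and Gtse1 were at least 2-fold higher (10.4% of all genes). In PMC-303, 7 members were at least 2-fold lower (9.14% of all 13024 genes) and only Gtse1 was at least 2-fold higher (10.6% of all genes). Zmat3, Trp53inp1, Eda2r, Gdf15 and Ak1 were at least 2-fold lower in both lines. Tigar and Fas passed this fold in PMC-303 alone, and Ccng1, Btg2, Psrc1, Aen, Phlda3, Sesn2, Dcxr and Xpc in PMC-306 alone. No member was at least 2-fold different on opposite sides in the lines.

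Set directly against each other, PMC-306 and PMC-303 differed at least 2-fold in 7 of 31 members (22.6%), against 13.1% of all genes with 1 CPM in either line. Plk3 and Fas were higher in PMC-306, by 2.19 and 1.28 on the log2 scale. Phlda3, Btg2, Sesn2, Ak1 and Eda2r were lower in PMC-306, with log2 ratios of −2.08, −2.24, −1.16 and −1.34 for the first 4, while Eda2r had 0 counts there. Of these, Sesn2 and Plk3 (chr4:116985852-116991226, minus strand) lie on chromosome 4, where PMC-306 carries its deletion, and Plk3 was the higher and Sesn2 the lower in PMC-306. Cdkn2a, which the deletion takes in, lies at chr4:89192708-89212890, at lower coordinates than both genes. Whether Sesn2 and Plk3 lie within the deletion was not tested, as its ends in bases are not given. These differences have no replicate check.

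**Figure D3:**
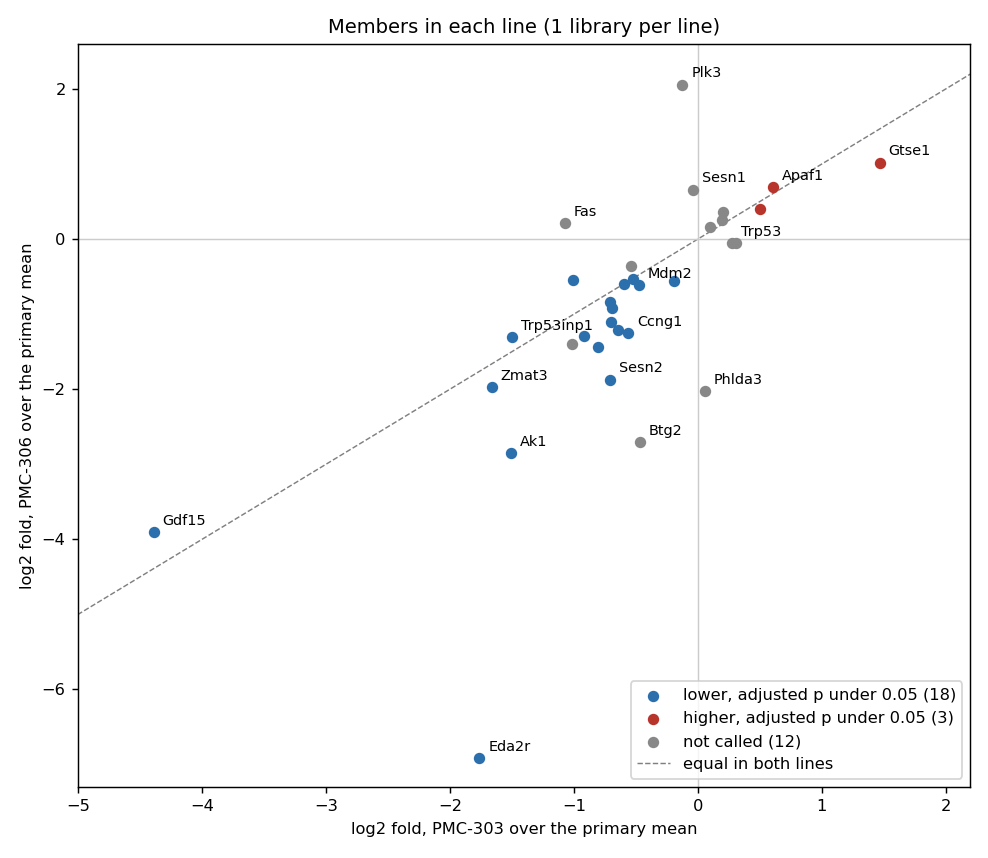
The log2 fold of each of the 33 members tested over the primary mean is plotted for PMC-303 (x axis) and PMC-306 (y axis), each from 1 library and with an offset of 0.1 CPM. Blue and red points were called lower and higher over both lines, grey points were not called, and the dashed line marks equal folds. Plk3, Phlda3 and Btg2 lie far from the dashed line, with PMC-303 near 0 and log2 folds of 2.06, −2.02 and −2.70 in PMC-306.

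The third question was whether the members differ between female and male primary cultures. None of the 33 members tested was called by limma, against 6 of all 14159 genes tested (0.0424%). An unadjusted p under 0.05 was reached by 1 member, against 475 of all genes tested.

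Genes of the pathway outside the members were read from lists written for this description. Of 25 regulators of p53, 23 were tested, of which 5 rose and 3 fell (median log2 difference 0.05). These shares, 21.7% and 13.04%, were near the 18.3% and 15.5% of all genes. Cdkn2a (the locus of p16 and of ARF, the inhibitor of MDM2) changed most. It was 1.40 CPM in PMC-303 and 3 counts in PMC-306, against 67.0 to 103 CPM in the primary cultures (median 76.0 CPM). Its log2 difference was −7.06 ± 0.54 (limma, adjusted p = 8.75e-05), and the primary mean was 558 times the PMC-306 level (95% counting interval 191 to 2707). Counts per gene do not separate p16 from ARF. Trp53bp2, a cofactor that steers p53 to death genes, fell by 0.77 and Prkdc, a kinase of DNA end joining, fell by 0.34. The checkpoint kinase Chek1 rose by 2.53, the nucleolar MDM2 inhibitor Npm1 by 0.68 and Ppm1d, a phosphatase that turns p53 signalling off, by 0.64. The kinases Atm, Atr and Chek2, which activate p53 after DNA damage, were not called (log2 differences of 0.05, 0.17 and −0.11).

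Of 27 further p53 targets, 24 were tested, of which 9 fell and 4 rose (median log2 difference −0.21). The share that fell was 37.5%, beside 15.5% of all genes, and the share that rose, 16.7%, was near the 18.3% of all genes. Cdkn1a, which encodes p21, the cyclin-dependent kinase inhibitor through which p53 halts the cell cycle, fell. It was 52.6 and 43.3 CPM in PMC-303 and PMC-306, just below the primary range of 54.9 to 84.9 CPM (median 76.2 CPM). This was a log2 difference of −0.62 ± 0.16 (limma, adjusted p = 0.0192), and without PMC-306 it was −0.48 with an adjusted p of 0.136, and with total-count scaling the adjusted p was 0.0543. The largest falls were those of Gadd45a, a growth arrest gene (−2.83), Zfp365, a genome stability gene (−2.64), and Trp53cor1, a long noncoding RNA transcribed next to Cdkn1a (−2.203). In PMC-303 Zfp365 had 1 count and in PMC-306 3 counts, and Gadd45a was 0.288 and 5.21 CPM in PMC-303 and PMC-306. The largest rises were those of the spindle gene Ckap2 (3.05), the iron reductase Steap3 (1.79) and the tetraspanin Cd82 (1.27). All 10 proliferation genes rose (median log2 difference 3.54), and both lines lay above every primary culture in each of them. Fewer cells of a type and less RNA per cell cannot be told apart in bulk libraries.

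**Figure D4:**
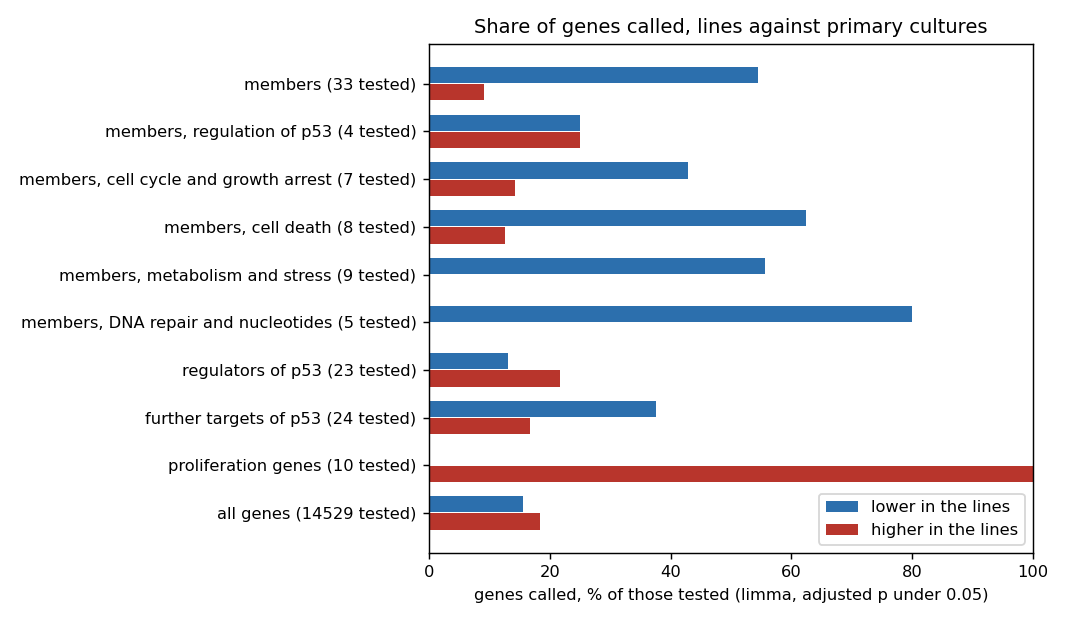
The share of tested genes that fell (blue) or rose (red) in the lines is plotted as a percentage (x axis, from 0) for the members, their role groups, the pathway lists and all genes (y axis, with the number tested). Of the members, 54.5% fell and 9.09% rose, and of all genes 15.5% fell and 18.3% rose.

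Transcripts of a gene overlap, and their counts are estimates that depend on how shared reads were divided. At least 2 transcripts, each with 10% or more of the gene's counts in a library, were present for 26 members. Of the 66 transcripts concerned, 64 had a share in every library, the exceptions being those of Eda2r. Both lines lay above the primary range in 3 of them (4.69%), against 6.12% of the 23727 transcripts of all genes chosen likewise, and below it in 7 (10.9%), against 5.82%. Of these 10 transcripts, 2 belong to Gdf15 and rest on 1 and 2 counts in the lines. Of Trp53 the main transcript ENSMUST00000108658.10 took 81.05% of the counts in PMC-303 and 85.1% in PMC-306, against 74.0 to 81.1% in the primary cultures. Of Mdm2 the transcript ENSMUST00000155285.8 took 3.12% in PMC-303 and 0% in PMC-306, below the 6.10 to 15.6% of the primary cultures. The main Mdm2 transcript ENSMUST00000020408.16 took 77.1% and 69.4%, and PMC-306 overlapped the primary range of 50.7 to 70.0%. Of Trp53inp1 the transcript ENSMUST00000029865.4 took 51.0% in PMC-303 and 59.6% in PMC-306, above the primary range of 39.4 to 49.8%.

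Other shifts were seen in a single line. The Zmat3 transcript ENSMUST00000168566.3 took 0% of the Zmat3 counts in PMC-303, 59.0% in PMC-306 and 45.9 to 69.4% in the primary cultures. In its place ENSMUST00000029199.11 took 90.9% in PMC-303, against 26.3% in PMC-306 and 23.0 to 43.2% in the primary cultures. Of Sesn1 the transcript ENSMUST00000099931.11 took 50.3% in PMC-303, 21.4% in PMC-306 and 20.6 to 32.0% in the primary cultures. The total of Zmat3 was nevertheless similar in both lines, at 24.5 and 19.7 CPM. In PMC-306, the Ak1 transcript ENSMUST00000113277.8 took 100% of 17 counts, against 0% in PMC-303 and in all primary cultures, where ENSMUST00000068271.5 took 91.9% and 92.1 to 98.8%. These shares were not tested.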

How the data were processed

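RNA-seq of 8 cultures was read from the deposited tables. Per the study's methods, the authors used stranded total RNA libraries and the nf-core/rnaseq pipeline with Trim Galore 0.6.7, STAR 2.7.9a on GRCm39 and Salmon 1.5.2. What the authors deposited were estimated counts for genes and transcripts, not normalized, and TPM, scaled by their pipeline for length and depth. Spreadsheet software had rewritten 3.37% of the gene count cells as text. Each was restored to its only reading. After this, 99.7% of the values per gene and library lay within 0.2 counts of their transcripts' sum, and the largest difference was 1.53 counts. In 96722 TPM cells the place of the decimal point was lost. It was chosen to fit the counts, which moved the point from its default place in 9308 of them.

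Because the deposited cells were partly text, a count model was not used, and limma 3.58.1 in R 4.3.3 took its place, with TMM library sizes, values of log2(CPM + 0.1), a trend of variance with mean level and Benjamini-Hochberg adjusted p-values. Genes needed about 10 counts in at least 2 libraries and 15 in total. Folds of a single line use the ratio of CPM + 0.1. Samples were grouped by their labels, which call the primary cultures biological replicates, and 0 columns lacked a sample. Libraries of a group differed beyond counting noise (chi-square per degree of freedom at least 23.8). Medians, ranges and folds were computed in Python 3.11.15. The fits were tested on simulated data. Total-count and median-of-ratios scaling, other offsets and filters, voom, each sex alone and each library left out were tried as alternatives.

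The members and lists were chosen with earlier results of these data known. Called members, Trp53, Mdm2 and Mdm4 are given with all libraries (6 primary cultures as lowest, median and highest), and other members by ranges. Of each list up to 3 called genes a direction are named, plus Cdkn2a and Cdkn1a. Other genes named (Atm, Atr, Chek2, Mki67) and the uncalled members' line values were added after their values were seen.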

Additional observations from a re-analysis of the deposited data

Results flagged for a closer look

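Among the 6 primary cultures, each of the 33 members tested was searched for a highest or lowest culture that stood apart from the other 5 by Dixon's test, and 4 did. For normally spread values chance flags about 1 in 20 such groups, or 1.65 of 33. No share over all genes is set beside this count, so that the 4 are not read as an excess. Fas was 3.83 CPM in male culture 1 and at most 2.49 CPM in the others. Dcxr was 39.2 CPM in male culture 1 and at most 31.2 CPM in the others. In female culture 1 Ercc5 was 53.2 CPM, and the next highest culture held 38.4 CPM. Tnfrsf10b was 6.72 CPM in female culture 2 and at least 8.89 CPM in the others. Dcxr, Ercc5 and Tnfrsf10b fell in the lines, and leaving out the culture that stood apart did not end any of these 3 calls. No member lay above every primary culture in one line and below every primary culture in the other.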

How the results depend on the processing

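The 18 falls and 3 rises among the members became 15 to 18 falls and 3 or 4 rises under the other scalings, offsets, filters and fits, and 13 to 19 falls and 3 rises when each library in turn was left out. With male primary cultures alone 15 members fell and 2 rose, and with female primary cultures alone 9 fell and 1 rose. Of the 21 called members, 21 were shared with median-of-ratios scaling, 18 with voom, 15 without PMC-306 and 10 with female cultures alone, in the same direction. Of the called members 7 and of the 12 others 4 kept their side of the threshold under all 17 alternatives, and no called difference changed sign. Scaling to total counts moved the median of all genes by 0.11 on the log2 scale, ended the calls of Tnfrsf10b, Ei24 and Cdkn1a (adjusted p of 0.0635, 0.132 and 0.0543), called Fdxr (0.40, adjusted p = 0.0202), and gave 8 instead of 5 regulators that rose. The regulators that rose were 3 with male and 1 with female cultures alone, and 4 of 9 further targets fell with female cultures alone. Members with both lines above the primary range numbered 4 to 8 with a library left out, 8 without PMC-303. Members at least 2-fold higher in PMC-306 numbered 1 with offsets of 0.5 or 1 CPM and with female cultures alone, and 1 to 2 with a primary culture left out (1 without female culture 2, male culture 2 or male culture 3), where Gtse1 lies near the threshold. Members at least 2-fold lower in PMC-303 numbered 4 of 7 among genes of at least 10 CPM. The cause of these changes was not tested.

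Female and male primary cultures share replicate numbers. Deviations of same-numbered cultures correlated by 0.38, −0.21 and 0.29, so that the numbers were not taken as pairs. With the replicate block 0 members were called between the sexes, as without it, and 5 instead of 6 of all genes. Each line has a single library, so that the spread of the lines rests on 2 libraries, and levels under 0.187 CPM could not be told from 0 in the shallowest library.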
